A study of Mus musculus with 28 samples.

Results

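The conversion of mouse embryonic fibroblasts towards induced muscle progenitor cells was followed here between day 4 and day 6 of treatment with doxycycline and small molecules (Dox+FRG). Chromatin accessibility was measured by ATAC-seq, in which a transposase cuts open chromatin and the released fragments are sequenced. The comparison set 2 libraries of MEF14 Dox+FRG day 6 against 2 libraries of MEF14 Dox+FRG day 4, 4 of the 28 libraries in the series. Each library came with its own list of called peaks, given as positions in the mm9 mouse genome. Merging all peaks of the 4 lists that shared 1 bp or more gave 91451 regions, and a region counts as called in each library whose peaks went into it. Regions called in both day 6 libraries and in neither day 4 library are termed gained, and those called in both day 4 and neither day 6 library are termed lost. By this rule 4202 regions were gained and 2647 were lost, an excess of 1555 gained regions. The excess was 271 when the 4 lists were drawn at random down to 51536 peaks, the length of day 4 replicate 2. That list stayed whole, so the draw can turn regions called in all 4 libraries lost but not gained. It can also turn gained the regions called in day 4 replicate 1 and both day 6 libraries, which numbered 8282. The lower excess is thus no measure of what equal depth would give.

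The fibroblasts came from E13.5 embryos and carry 3 alleles. Rosa-rtTA and Col1a1-tetO-MyoD together let doxycycline switch on a MyoD transgene, and the Pax7-nGFP allele reports Pax7 with a nuclear GFP. The Dox+FRG medium per the labels held doxycycline at 2 μg/ml, forskolin at 5 μM, RepSox at 5 μM, the GSK3 inhibitor CHIR99021 at 3 μM and basic FGF at 10 ng/ml, and FRG was read as the small molecules. Day 0 fibroblasts carry the same alleles without treatment. The other MEF14 groups used were Dox+FRG at day 2 and day 8, Dox+FRG cells labelled GFP at day 8 and day 10, cells given doxycycline alone (Dox) at day 4 and day 8, and a day 8 group labelled FRG without Dox. Per the labels' protocols the medium without small molecules kept basic FGF and doxycycline. Quiescent and activated satellite cells were the reference muscle stem cells, taken from Pax7-nGFP mice that were adult. Whether cells labelled GFP were sorted is not said. The MEF10 groups, MyoD+FRG and MN+FRG, were both at day 6, and the labels define neither MEF10 nor MN. Every group had 2 libraries, and nothing in the labels says whether these came from separate cultures.

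MyoD is a transcription factor of the skeletal muscle lineage that can open closed chromatin and turn fibroblasts into muscle cells. Satellite cells are the Pax7-positive stem cells of skeletal muscle, quiescent in resting muscle and activated when they enter the cell cycle and express MyoD. Forskolin raises cyclic AMP, RepSox blocks the TGF-beta type I receptor, and CHIR99021 activates Wnt signalling by blocking GSK3. No annotation or sequence of mm9 was used here, so regions are given by position, without gene names, motifs or bases.

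The day 4 lists held 70877 and 51536 peaks in replicates 1 and 2, and the day 6 lists 64823 and 65516. Day 4 replicate 1 shared more regions with the day 6 libraries than with its own replicate. Its Jaccard index, the shared regions over the regions called in either library, was 0.602 with day 4 replicate 2, against 0.625 and 0.627 with day 6 replicates 1 and 2. Day 4 replicate 2 had 0.582 and 0.584 with the day 6 libraries, which had 0.686 with each other. The day 6 pair was thus more alike than the day 4 pair, and results without each library are given where they differ. The lists hold no read counts, and the depth of each library is unknown.

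Of the 91451 regions, 39899 (43.6%) were called in all 4 libraries and 24281 (26.6%) in a single library. Gained regions were 4.59% and lost regions 2.89% of all regions. Between these, 6999 regions (7.65%) were called in 1 library of each day. The commonest of those patterns were day 4 replicate 1 with day 6 replicate 2, at 2973 regions, and day 4 replicate 1 with day 6 replicate 1, at 2874. Each of these 2 patterns held more regions than the lost set and fewer than the gained set. With 2 libraries against 2, an exact permutation test over both tails cannot give a p below 0.333, so the counts were not tested.

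**Figure D1:**
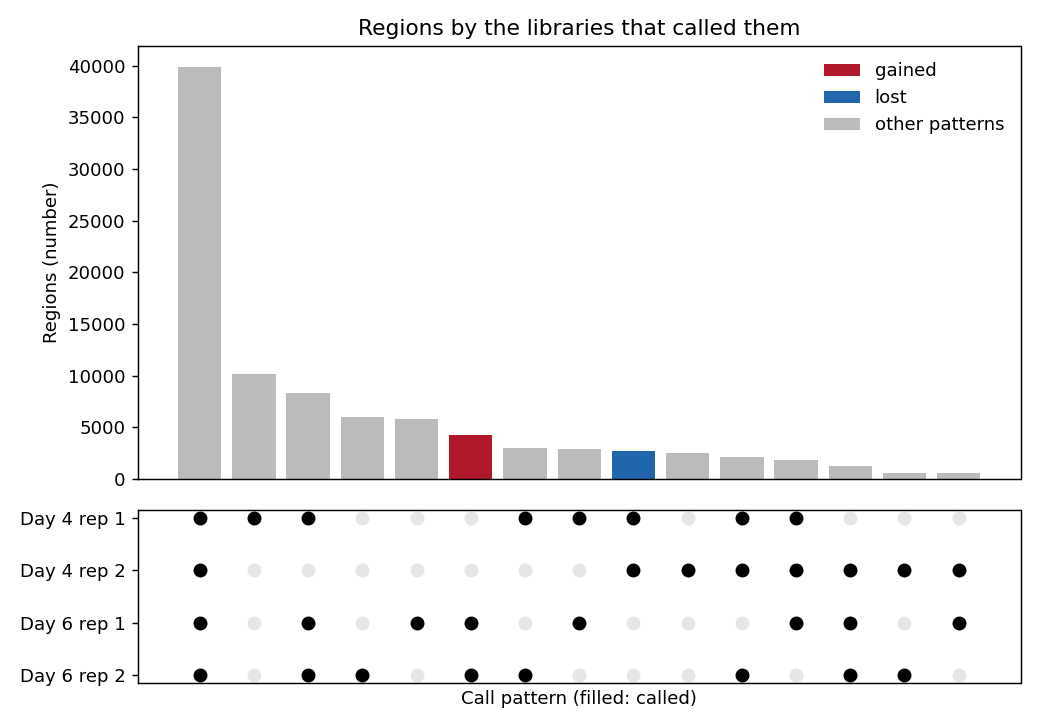
Number of regions (y axis) for each of the 15 call patterns over the 4 libraries, with filled dots marking the libraries that called the region. The pattern of all 4 libraries holds 39899 regions, the gained pattern 4202 and the lost pattern 2647.

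Just outside the rule, 9526 regions were called in both day 6 libraries and 1 day 4 library. Of these, 8282 had been called in day 4 replicate 1 and 1244 in day 4 replicate 2, the shorter list. On the other side, 3897 regions were called in both day 4 libraries and 1 day 6 library, 2081 of them in day 6 replicate 2 and 1816 in day 6 replicate 1. Without day 4 replicate 1 there were 12626 gained and 5416 lost regions. Without day 4 replicate 2 the larger side turned, to 5692 gained and 13087 lost. A library left out lets 1 list stand for its day, which raises both counts by construction.

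Among the intervals of the unsorted time course, day 4 to 6 had fewer lost regions than any other and fewer gained regions than the 2 earlier ones. From day 0 to day 2 the same rule gave 5672 gained (5.86%) and 15814 lost (16.3%) regions of the 96870 in those lists. From day 2 to day 4 it gave 9385 gained (10.3%) and 3670 lost (4.04%) of 90853. From day 6 to day 8 it gave 1509 gained (1.74%) and 3742 lost (4.3%) of 86937, with a day 8 list of 50608 peaks beside one of 67026. Neighbouring intervals share libraries, and these counts were not tested against each other.

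The 24 libraries outside the comparison gave readouts that the rule did not use. Gained regions were mostly absent from the start of the conversion. Day 0 replicates 1 and 2 called 20.3% and 19.8% of them, and day 2 libraries 17.3% and 10.3%. At day 8 the Dox+FRG libraries called 70.7% and 41.6%, the lower share in the shorter list. Every day 8 library was thus above every day 0 and day 2 library. Of all regions, day 0 libraries called 51.2% and 50.2%, day 2 libraries 53.9% and 45.3%, and day 8 libraries 66.7% and 52.8%. Gained regions were thus below the average region at day 0 and day 2, and on either side of it at day 8. In bulk cultures such as these, fewer cells with an open region and less opening per cell cannot be told apart.

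Lost regions showed the opposite order. Day 0 libraries called 66.8% and 65.6% of them and day 2 libraries 68.0% and 55.5%, while day 8 libraries called 18.9% and 10.3%. When the lists compared were drawn down to equal length, the mean share of lost regions called at day 8 was 44.7%, against 14.6% here. That draw can add regions called in all 4 libraries to the lost set, and the day 8 mean for those was 91.2%. All 4 libraries of day 0 and day 2 lay above both day 8 libraries. Regions called in 1 library of each day lay between gained and lost regions in all of these libraries, at 39.2% and 37.3% on day 0, 36.6% and 25.3% on day 2, and 49.0% and 25.0% on day 8. The regions called in all 4 libraries of days 4 and 6 were found in 69.8% and 69.2% of cases on day 0 and 95.2% and 87.1% on day 8.

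The direction from day 0 to day 8 did not rest on a single library of the comparison. The mean share of gained regions called was 36.1 points higher at day 8 than at day 0, and 20.0 to 36.0 points higher when each of the 4 libraries was left out in turn. For lost regions the difference was -51.6 points, and between -37.3 and -33.8 points with each library left out. With each of the 4 lists drawn at random down to 51536 peaks the differences were 33.5 and -21.0 points, with the limits on both sets given above. In that draw the mean share of gained regions called at day 0 was 27.3%, against 20.1% here.

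**Figure D2:**
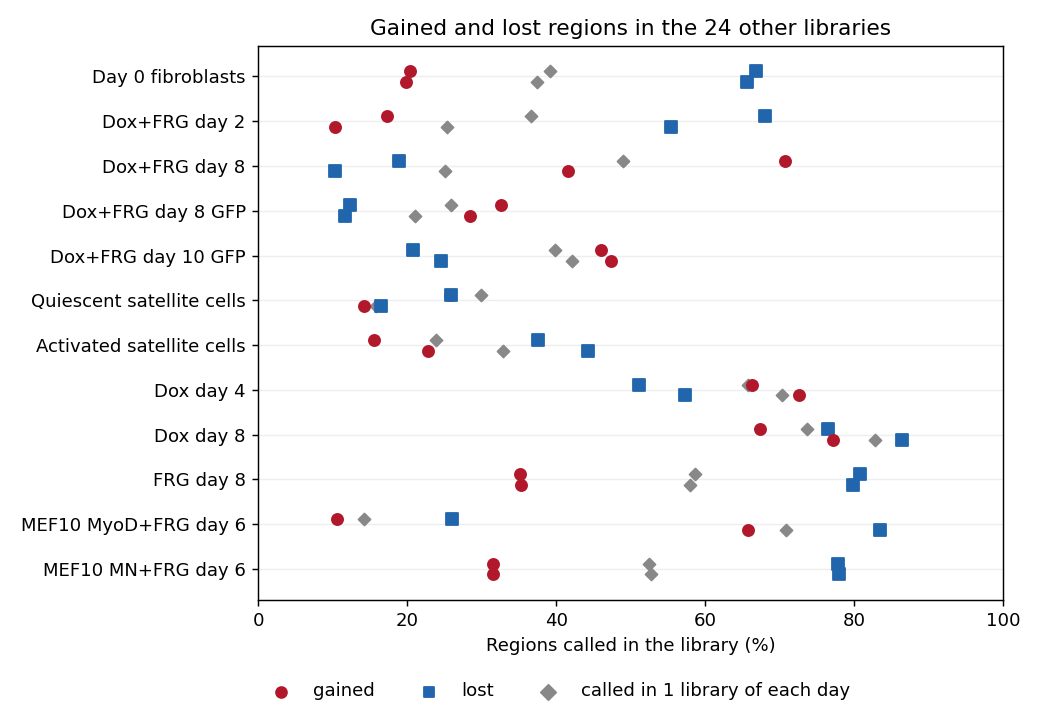
Percentage of regions called (x axis) in each of the 24 libraries outside the comparison, 2 points per group (y axis), for gained regions (red circles), lost regions (blue squares) and regions called in 1 library of each day (grey diamonds). Gained regions lie right of lost regions in all 6 Dox+FRG libraries of day 8 and day 10, and left of them in day 0, day 2, activated satellite cell, FRG and MEF10 libraries.

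Most gained regions were newly called, in the sense that no day 0 and no day 2 library had them: 2784 of 4202, or 66.3%. This held for 32.9% of all regions, 15.9% of lost regions and 42.4% of the regions called in 1 library of each day. A further 632 gained regions (15.0%) were called in both day 0 libraries. Of the 632, 148 were called in both day 2 libraries as well, which is 3.52% of gained regions against 33.5% of all regions. The other 484 were called in both day 0 and not both day 2 libraries, 11.5% of gained against 12.5% of all regions. Only 89 gained regions (2.12%) were called in both day 2 libraries and in no day 0 library, against 5.33% of all regions.

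Both day 0 libraries called 1577 (59.6%) of the 2647 lost regions. Both day 0 and both day 2 libraries called 1071 (40.5%), against 33.5% of all 91451 regions. Both day 0 and not both day 2 libraries called 506 (19.1%), against 12.5% of all regions. Another 421 (15.9%) had no call at day 0 or day 2, so that they were called at day 4 and not at day 0, day 2 or day 6. Day 8 libraries called 32.3% and 19.5% of these 421, against 18.9% and 10.3% of all lost regions. Of the lost regions, 139 (5.25%) were called in both day 2 libraries and in no day 0 library, next to 5.33% of all regions.

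After day 6, calls of gained regions were divided. Both day 8 libraries called 1528 (36.4%), 1 of the 2 called 1664 (39.6%), and 1010 (24.04%) were in neither. Of all regions, 49.5% were in both day 8 libraries, 20.4% in 1 of the 2 and 30.0% in neither. Of lost regions, 2023 (76.4%) were in neither day 8 library and 148 (5.59%) were called again in both. The regions that ran from no call at day 0 and day 2 to calls in both day 8 libraries numbered 1006 among gained (23.9%) and 51 among lost regions (1.93%). The reverse run, from both day 0 and both day 2 libraries to no day 8 library, held 931 lost (35.2%) and 32 gained regions (0.762%). Of all regions, 10.8% made the first run and 5.70% the reverse.

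**Figure D3:**
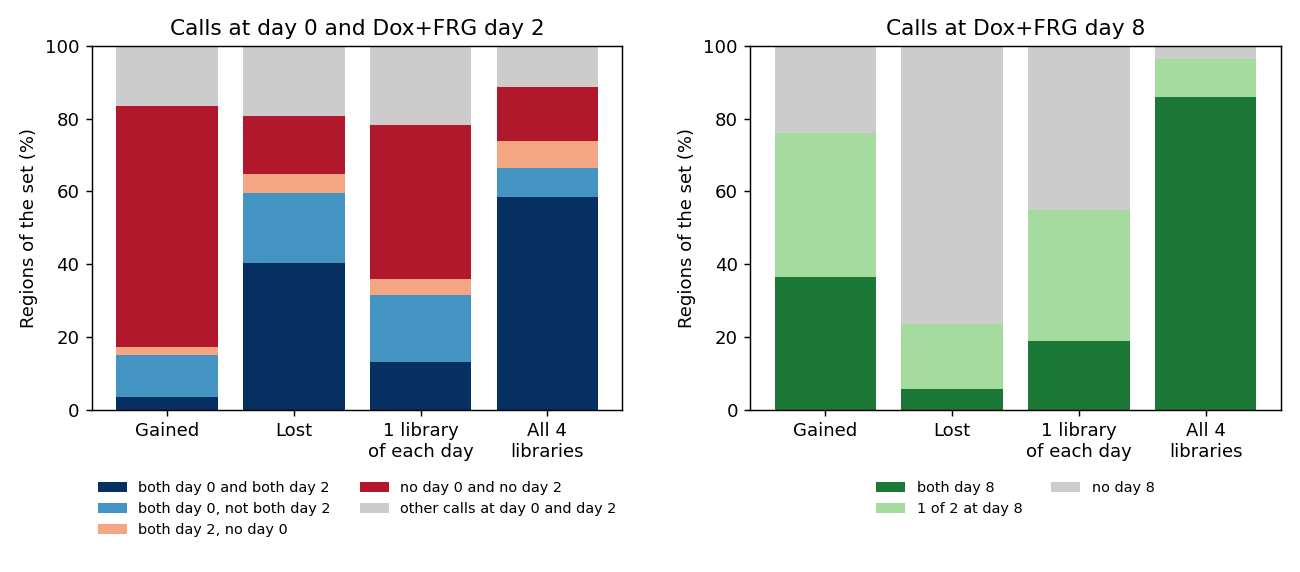
Percentage of each set of regions (y axis, stacked to 100) by its calls at day 0 and Dox+FRG day 2 (left) and at Dox+FRG day 8 (right), for gained, lost, 1-library-of-each-day and all-4-library regions. Regions with no call at day 0 and day 2 make up 66.3% of the gained set, and regions with no call at day 8 make up 76.4% of the lost set.

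Dox+FRG cells labelled GFP, which report Pax7, called 28.4% to 47.4% of the gained regions. These shares were below the longer unsorted day 8 list, at 70.7%, and the day 10 ones were above the shorter, at 41.6%. At day 8 the GFP libraries called 32.6% and 28.4% of gained and 12.4% and 11.7% of lost regions, from lists of 47002 and 43467 peaks. At day 10 they called 46.0% and 47.4% of gained and 20.7% and 24.5% of lost regions. The mean shares of all regions were higher, 43.4% in day 8 and 56.5% in day 10 GFP libraries. With the compared lists at equal length the day 10 means came to 52.2% of gained and 45.7% of lost regions. The draw can move regions called in all 4 compared libraries into the lost set, and the day 10 GFP mean for those was 82.2%. It can also move regions called in day 4 replicate 1 and both day 6 libraries into the gained set. How far these moves changed the gap was not tested. In each of the 4 GFP libraries gained regions were above lost regions, which compares the sets within 1 list and so at 1 depth. All 4 GFP libraries called 905 gained regions (21.5%) and 181 lost regions (6.84%), both under the 36.9% of all regions. By contrast, 422 gained regions (10.0%) were called in both unsorted day 8 libraries and in no GFP library, against 5.96% of all regions. A set of 358 regions had no call at day 0 or day 2 and was called in both day 8 and all 4 GFP libraries. These made up 8.52% of gained regions, against 0.529% of lost regions and 3.52% of all regions.

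Satellite cell libraries called gained regions less often than the average region: the mean over quiescent libraries was 19.9% of gained and 37.3% of all regions, and over activated libraries 19.2% and 49.2%. Activated satellite cells called 15.6% and 22.8% of gained and 37.6% and 44.3% of lost regions, with lost regions above gained regions in both libraries. That mean difference of -21.8 points was -0.468 points without day 4 replicate 1 and -2.73 points without day 4 replicate 2. Quiescent satellite cells called 25.7% and 14.1% of gained and 25.8% and 16.5% of lost regions. The mean shares, 19.9% and 21.2%, were near each other here and apart in other settings: 23.5% of gained against 34.7% of lost regions at equal list length, 16.7% against 25.0% without day 6 replicate 1, and 28.1% against 18.8% without day 4 replicate 1. The draw to equal length has the limits on both sets given above. No satellite cell library called 2486 gained regions (59.2%), against 1147 lost regions (43.3%) and 34.8% of all regions. Regions called in both activated and no quiescent libraries were 529 (20.0%) of lost and 254 (6.04%) of gained regions, against 13.6% of all regions. Regions called in both quiescent and no activated libraries were 269 (6.40%) of gained and 112 (4.23%) of lost regions. Of all regions they were 4.15%, near the share of lost regions. More than 1 in 2 gained regions, 2152 or 51.2%, were called neither in fibroblasts at day 0 nor in any satellite cell library. The share of all regions was 24.3%.

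Regions classed from day 0 and satellite cell libraries alone were then read in the 4 libraries. The fibroblast-only class held 17793 regions that both day 0 and none of the satellite cell libraries called. Of these, day 4 replicates called 30.5% and 16.5%, and day 6 replicates 16.6% and 17.3%. The day 4 libraries lay on either side of the day 6 pair, so the lower mean at day 6, 17.0% ± 0.465 against 23.5% ± 9.88 (SD, n = 2 each), rested on day 4 replicate 1. Without that library the difference was 0.44 points in the other direction. Activated-only regions (8268, both activated libraries and no other of the classing libraries) were called at 63.2% and 50.7% on day 4 and 60.2% and 61.0% on day 6. Here too the days overlapped. The 3296 satellite-shared regions, called in all 4 satellite cell libraries and not at day 0, were at 69.9% and 58.3% on day 4 and at 69.4% in both day 6 libraries.

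Quiescent-only regions, 6133 in all, were the single class whose day 4 and day 6 libraries did not overlap. Day 4 replicates called 11.7% and 6.26% of them and day 6 replicates 12.9% and 13.6%. The mean was 4.27 points higher at day 6, between 1.54 and 7.003 points with each library left out, and 2.92 points with lists of equal length (exact permutation test over both tails, p = 0.333, the smallest it can give). Day 2 libraries had called 9.55% and 5.32% and day 8 libraries 18.3% and 13.4%, and the GFP libraries of day 10 reached 33.7% and 36.2%. Outside Dox+FRG, day 8 FRG libraries called 37.9% and 37.7% of them. Dox libraries called 14.4% and 16.6% at day 4 and 20.2% and 26.6% at day 8. These Dox and FRG lists were longer than the Dox+FRG lists. Common regions, called in all 6 libraries of day 0 and satellite cells, stood at 97.6% and 92.8% on day 4 and at 94.3% and 94.6% on day 6. For the other 4 classes the exact permutation p was 1. With 2 libraries against 2 none of the 5 classes could give a p below 0.333.

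**Figure D4:**
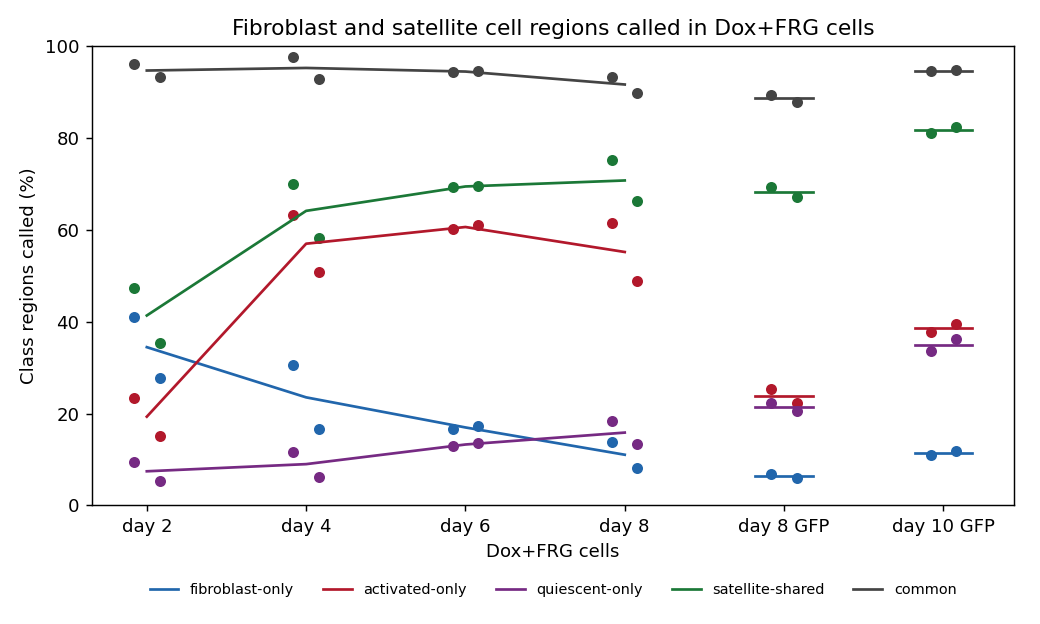
Percentage of class regions called (y axis) in each Dox+FRG library (points) with group means (lines; short bars for cells labelled GFP), by day (x axis). Day 4 libraries spread widely, from 16.5% to 30.5% of fibroblast-only regions, while the day 6 libraries lie close together in every class.

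The groups given MyoD without small molecules, or labelled with small molecules alone, split the gained and lost regions differently. Dox day 4 libraries called 66.3% and 72.6% of gained and 51.2% and 57.3% of lost regions, and Dox day 8 libraries 67.4% and 77.2% of gained and 76.5% and 86.4% of lost regions. FRG libraries called 35.1% and 35.3% of gained and 80.7% and 79.8% of lost regions. Mean shares of all regions were 76.0% in Dox day 4, 82.7% in Dox day 8 and 64.0% in FRG libraries. The lists of these groups were long, 89871 to 97854 peaks in Dox day 4, 108663 to 130916 in Dox day 8 and 133267 to 134997 in FRG libraries, so the shares are best compared within a library. Gained regions were above lost regions in both Dox day 4 libraries and below them in both Dox day 8 and both FRG libraries. Without day 6 replicate 1 or 2 the Dox day 4 difference turned, to -3.93 and -5.65 points from 15.2 points. Without day 4 replicate 1 or 2 the Dox day 8 difference turned, to 16.9 and 8.89 points from -9.19 points. The FRG difference of -45.1 points kept its direction in all of these.

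By calls in all libraries of an arm, 1316 gained regions (31.3%) were called in all 4 Dox and no FRG libraries, against 257 lost regions (9.71%) and 19.7% of all regions. These 1316 regions were at 4.94% and 4.33% in day 0 libraries and 77.3% and 40.3% in Dox+FRG day 8 libraries. All gained regions were at 20.3% and 19.8% in day 0 and 70.7% and 41.6% in day 8 libraries. Regions called in both FRG and no Dox libraries were 134 (3.19%) of gained and 169 (6.38%) of lost regions, next to 3.59% of all regions. A group of 404 gained regions (9.61%) was called in no Dox and no FRG library, against 51 lost regions (1.93%) and 4.82% of all regions. The share was 4.21% of the regions called in 1 library of each day and 0.170% of those called in all 4. Dox+FRG day 8 libraries called 72.3% and 46.0% of the 404 gained regions and day 10 GFP libraries 37.4% and 39.4%, while day 0 libraries called 2.48% and 2.97%. Activated satellite cells called 5.94% and 8.42% of them and quiescent satellite cells 10.4% and 6.44%. The day 8 shares of the 404 are near those of all gained regions. The sets of 1316 and 404 leave out every region that an FRG library called. FRG libraries called 88.4% and 88.6% of the gained regions called in both day 0 libraries. Low day 0 shares thus follow in part from the definitions. Shares for all regions with the same calls were not taken.

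Among lost regions, 477 (18.02%) were called in both Dox day 8 and no Dox day 4 libraries, against 157 gained regions (3.74%) and 4.91% of all regions. Day 0 libraries called 78.0% and 76.3% of the 477, and FRG libraries 95.2% and 93.9%. Dox+FRG day 8 libraries called 9.01% and 4.19%. The Dox day 8 lists were longer than the Dox day 4 lists.

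**Figure D5:**
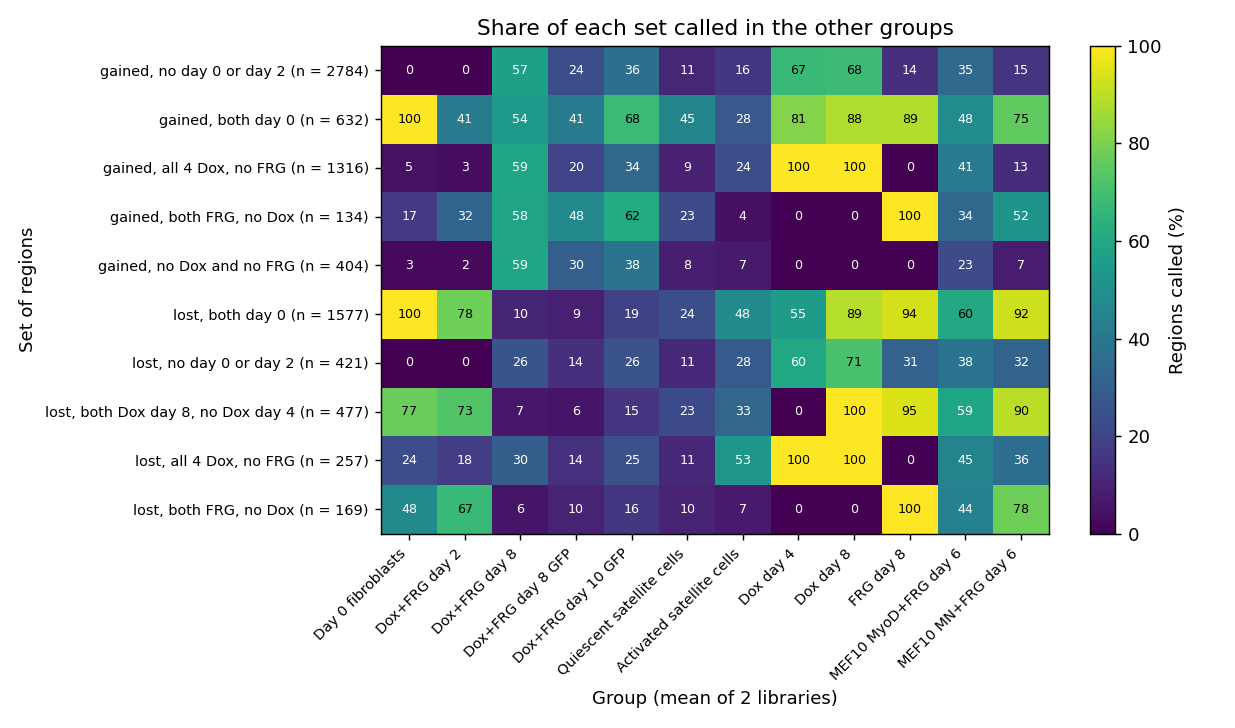
Percentage of regions called (colour and number, mean of 2 libraries) for sets of gained and lost regions (rows, with their number of regions) in the other 12 groups (columns). Values of 0 and 100 in a set's own defining groups follow from its definition. The 404 gained regions without Dox or FRG calls are at 59.2% in Dox+FRG day 8 cells and at 2.72% in day 0 fibroblasts. All gained regions are at 56.2% and 20.1% there, and the low day 0 share follows in part from the definition.

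Gained and lost regions held few wide peaks. In each of the 4 lists most peaks share 1 width, 178 and 172 bp at day 4 and 172 and 160 bp at day 6, and peaks above it are called extended here. Extended peaks from either day lay in 190 gained (4.52%) and 84 lost regions (3.17%), against 9642 (24.2%) of the regions called in all 4 libraries. The share was 12.9% of all regions and 3.94% of the regions called in 1 library of each day. Regions called in all 4 libraries merge more peaks than gained or lost regions do. They thus have more chances to hold an extended peak and tend to be wider by construction. The median gained region was 188 bp wide and the median lost region 216 bp, and regions called in all 4 libraries had a median of 247 bp. With extended peaks alone the rule gave 758 gained and 286 lost regions. With peaks above the commonest width alone in every library, day 8 minus day 0 was 14.8 points for gained and -31.1 points for lost regions.

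By the rule no changed region overlaps a peak of the other day. The closest day 4 peak was a median of 6.29 kb from a gained region, and the closest day 6 peak 6.90 kb from a lost region. Distances were not taken for other regions, so these medians cannot be called long or short. A day 4 peak lay within 500 bp of 299 gained regions (7.12%), and a day 6 peak within 500 bp of 221 lost regions (8.35%), where a shift of 1 peak and a change of 2 peaks cannot be told apart from the lists. Without them 3903 gained and 2426 lost regions were left. Most changed regions were called somewhere else in the series. In the 24 other libraries 33 gained (0.785%) and 9 lost regions (0.340%) had no call, against 1.28% of all regions. The median number of calls there was 8 for gained, 12 for lost, 21 for all-4-library and 14 for all regions.

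All chromosomes with peaks took part. Gained regions ran from 3.62% of the regions on chromosome X to 6.05% on chromosome 16, and lost regions from 2.10% on chromosome 17 to 3.58% on chromosome 14. In windows of 100 kb, 3654 of the 19485 windows with a region held a gained region, 2421 a lost one and 604 both. No window held more than 4 of either kind. There were 61 windows with at least 3 gained regions, 42 of which had no lost region, and 18 with at least 3 lost regions, 9 of which had no gained region.

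The windows with most gained regions, 4 each, were on chromosome 2 from 74200001 to 74300000 (of 7 regions) and from 168500001 to 168600000 (of 12), chromosome 4 from 148200001 to 148300000 (of 12), chromosome 7 from 149700001 to 149800000 (of 14) and chromosome 11 from 54800001 to 54900000 (of 16). In the first of these the gained regions were called 0 times in the day 0, day 2, FRG and quiescent satellite cell libraries, 3 and 2 times in day 8 and 2 and 3 times in Dox day 4 libraries. The second chromosome 2 window had all 4 of its gained regions in both Dox day 4 libraries and 1 in each day 0, each day 8 and each FRG library. In the chromosome 4 window, day 8 libraries called 2 each, Dox day 4 libraries 3 each, and day 0, day 2 and FRG libraries 0. The chromosome 7 and chromosome 11 windows held 1 and 2 gained regions, in that order, that each day 0 library had already called.

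Lost regions were most frequent on chromosome 10 from 21500001 to 21600000 (4 of 7 regions), chromosome 14 from 25000001 to 25100000 (4 of 11, beside 3 gained) and chromosome 4 from 114000001 to 114100000 (4 of 15). The next had 3 lost regions each, on chromosome 14 from 72900001 to 73000000 and on chromosome 18. In the chromosome 10 window day 0 libraries called 3 and 4 of the lost regions, both FRG libraries 4, quiescent satellite cells 4 and 3, activated satellite cells 0 and 1, and Dox+FRG day 8 libraries 0 and 1. In the chromosome 4 window quiescent satellite cells called 0 and activated satellite cells 2 in each library, day 2 libraries 4 and 2, and all 6 later Dox+FRG libraries 0.

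Single regions were named by peak width and by their calls in other libraries. The gained region with the largest mean peak width lay on chromosome 1 from 191928764 to 191930822, with peaks of 1979 and 930 bp in day 6 replicates 1 and 2. It was called in no library of day 0, day 2, satellite cells or FRG, and in both libraries of every Dox group and of Dox+FRG day 8, day 8 GFP and day 10 GFP. The region on chromosome 2 from 170333326 to 170334587, with peaks of 1205 and 1262 bp, had already been called earlier: both libraries of day 0, day 2, Dox+FRG day 8, activated satellite cells, Dox day 4, Dox day 8 and FRG called it, and neither of day 8 GFP. A region on chromosome 9 from 61011795 to 61013008 was called in both day 8, both day 8 GFP, both day 10 GFP and both FRG libraries, in 1 of 2 day 2 and 1 of 2 quiescent satellite cell libraries, and in no day 0 or Dox library. On chromosome 5 from 140325461 to 140326282, a gained region with peaks of 822 and 715 bp had no call at day 0 or day 2, or in satellite cells or FRG cells, and was called in all 6 Dox+FRG libraries of day 8 and day 10.

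Of lost regions, that on chromosome 10 from 90427403 to 90428662 had the largest mean peak width, with peaks of 1209 and 1129 bp at day 4. One day 0 library, both day 2, both quiescent satellite cell, both Dox day 8 and both FRG libraries called it, and no Dox+FRG library after day 4 did. The region on chromosome 8 from 130762987 to 130764009, with peaks of 1016 and 953 bp, was called in both libraries of day 0, day 2, Dox day 8 and FRG, in 1 of Dox day 4 and in none of the later Dox+FRG libraries. On chromosome 16 from 52000328 to 52001247 a lost region with peaks of 879 and 905 bp had the same calls in these groups. It was called in both activated and no quiescent satellite cell libraries, while the chromosome 8 region was called in 1 quiescent and no activated library. These positions count from 1 in mm9.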

How the data were processed

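The deposited files held other data than counts or signal: for each library a list of peak positions (chromosome, start, end), with no score. BWA, HOMER and mm9 are named per the submitters' processing notes. Not given in the sources used here: their versions, peak thresholds and any read shift. Each reaction took 60000 cells and each library 13 PCR cycles, per the labels' protocols. Regions were merged from the 4 libraries compared and not from all 28, because MEF10 MyoD+FRG replicate 2 holds peaks of up to 202465 bp. Counting used Python 3.11.15 with numpy 2.4.6 and was tested on simulated lists. No library was dropped.

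The members, classes and comparisons were chosen with earlier results of these data known. Named windows are the 5 with most gained and most lost regions. Named regions were drawn from 2 sets of 5 each way: those with the largest mean peak width, and those called in most later Dox+FRG libraries and in no day 0 or day 2 library, reversed for lost regions. Motif, gene list and sequence steps were planned and not run: the tables provided use GRCm38.p6, another build than the peaks. Alternatives were other merges, an overlap of 50% of the shorter peak, extended peaks, a seeded draw of equal list lengths, autosomes and each library left out. After the lists were seen, regions with no peak of the other day within 500 bp were added. With 2 libraries a group, the exact p-values compare the day difference with that under other arrangements of the same libraries. They take only a few fixed values and do not measure the spread between libraries. Differences between libraries may be technical.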

Additional observations from a re-analysis of the deposited data

Results flagged for a closer look

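Among the 12 other groups, both libraries called gained regions more often than lost regions in 4 groups and less often in 8, which makes 32 pairs of groups of opposite direction. The 8 pairs looked at here share a treatment or a day, or set the arms against each other. These contrasts compare percentages of gained minus percentages of lost regions within a library, and none of the differences was tested. Within doxycycline alone the difference moved from 15.2 points at day 4 to -9.19 at day 8, a change of -24.4 points, and both ends turn when single libraries of the comparison are left out. Within Dox+FRG it moved from -47.9 at day 2 to 41.6 at day 8, a change of 89.5 points, and from day 0, at -46.1, to day 8 the change was 87.7 points. At day 8, Dox+FRG cells stood 50.8 points above Dox cells and 86.7 points above FRG cells, which were at -45.1. Day 8 GFP cells, at 18.5, stood 27.7 points above Dox day 8 and 63.6 points above FRG cells. Dox day 4 cells stood 60.3 points above FRG day 8 cells, with different days on the 2 sides.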

How the results depend on the processing

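Gained and lost counts stayed within 1.5 times of those reported when regions were merged from all 28 libraries (3768 and 2369) or 27 of them (3956 and 2476), with an overlap of 50% of the shorter peak (4506 and 2495), with equal list lengths (4012 and 3741, an excess of 271), with autosomes alone (4125 and 2584) and without regions near a peak of the other day (3903 and 2426). The draw to equal lengths left day 4 replicate 2 whole, so regions called in all 4 libraries can turn lost and not gained. Regions called in day 4 replicate 1 and both day 6 libraries can turn gained. Extended peaks alone gave 758 and 286. With each library left out in turn, gained counts ran from 5692 to 12626, lost counts from 4524 to 13087 and gained minus lost from -7395, without day 4 replicate 2, to 7210. Gained minus lost shares ran from -5.65 to 33.6 points in Dox day 4 and from -22.4 to 16.9 points in Dox day 8 cells. They kept their direction in FRG (-43.1 to -15.2) and activated satellite cells (-28.9 to -0.468).

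Class shares at day 6 minus day 4 turned under extended peaks for fibroblast-only (1.88 points) and common regions (2.08 points), and under equal list lengths for activated-only (-0.792 points) and satellite-shared regions (-0.319 points). With each library left out they ran from -13.5 to 0.441 points for fibroblast-only, -2.61 to 9.88 for activated-only, 1.54 to 7.003 for quiescent-only, -0.516 to 11.1 for satellite-shared and -3.15 to 1.58 for common regions. Shares of gained and lost regions in single outside groups moved by more than the spread of 2 libraries in 81 of 198 cases, while day 8 minus day 0 kept its direction in 22 of 22. The causes of these moves were not tested. The other motif windows and gene distances that had been listed were not run. With same-numbered libraries as pairs (replicate block), day 6 minus day 4 was -13.9 and 0.77 points for fibroblast-only, -3.01 and 10.3 for activated-only, 1.16 and 7.39 for quiescent-only, -0.546 and 11.2 for satellite-shared and -3.31 and 1.74 for common regions. The mean of the pairs is the unpaired difference, 4.27 points for quiescent-only regions, and its exact sign-flip permutation p was 0.5, the smallest that pairs of this number can give. Nothing in the labels pairs the libraries, and replicate differences at day 4 and day 6 were uncorrelated over the 91451 regions (r = 0.0047). For the gained and lost counts the pairs give the same set of regions by definition. The unknown depth limits all shares.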

Other observations

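The 632 gained regions (15.0%) that both day 0 libraries called were called in fibroblasts, not at day 4, and again at day 6. Of all regions, 33.5% were called in both day 0 and both day 2 libraries. A further 12.5% were called in both day 0 and not both day 2 libraries. Day 2 libraries called 46.4% and 35.1% of them and day 8 libraries 65.3% and 43.2%. Day 10 GFP libraries called 68.0% and 68.7%, against 35.3% and 37.4% of the 2784 gained regions with no call at day 0 or day 2. Quiescent satellite cells called 58.5% and 32.4% of the 632 and activated satellite cells 22.6% and 33.5%, from lists of 57859, 37910, 49072 and 61400 peaks. FRG libraries called 88.4% and 88.6% of the 632 and 13.6% and 13.4% of the 2784. Dox day 4 libraries, from cells without the small molecules, called 79.3% and 83.2% of the 632.

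The MEF10 groups were at day 6 with FRG, and both called lost regions more often than gained ones. MN+FRG libraries called 31.4% and 31.5% of gained and 77.8% and 77.9% of lost regions. MyoD+FRG libraries called 10.6% and 65.8% of gained and 25.95% and 83.4% of lost regions, a spread that goes with lists of 37301 and 91401 peaks and with the wide peaks of replicate 2.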
